A study of Mus musculus with 6 samples.

Results

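The collagen chain genes of sorted Lewis lung carcinoma cells were chosen by symbol: every gene named Col, a number, the letter a and a number. The count table held 44 such genes among 55334 gene rows, and 29 of them had at least 10 counts in 3 or more of the 6 libraries. Each group had 3 libraries. The JAG2KO libraries (JagKO2, JagKO3 and JagKO4, the names of their columns) came from cells given a guide RNA for Jag2, a gene for a Notch ligand, and the Scramble libraries (replicates 1, 2 and 3) from cells given a scrambled guide RNA. All cells were of this mouse lung cancer line, expressed green fluorescent protein (GFP), grew as flank tumours in mice and were sorted as GFP-positive cells that lacked the leukocyte marker CD45 and excluded the dye DAPI. The labels do not say whether the edited cells were 1 clone or a pool, nor whether the libraries came from different mice. The p-values therefore reflect sample-to-sample spread alone, and that spread may be technical.

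Libraries held 37036772 to 42914376 counts in JAG2KO and 39448304 to 43923565 in Scramble. Between libraries of 1 group, the chi-square of the counts over its degrees of freedom was 12.2 to 31.0, well over sampling noise. Jag2 itself had 19, 30 and 48 counts in JagKO2, JagKO3 and JagKO4 and 67, 48 and 40 in Scramble replicates 1, 2 and 3. These overlapped (log2 fold change -0.58 ± 0.39 SE, adjusted p = 0.318 in edgeR), and since edited genes can still be transcribed, this level does not check the labels. Of 9 lung and epithelial markers, the lung genes Sftpb and Nkx2-1 had 0 counts in every library, and the epithelial genes Epcam and Cdh1 measured 0.133 to 1.03 CPM in JAG2KO and 0.178 to 1.45 CPM in Scramble. CPM is the count scaled to a common library size with a correction for composition. Krt18, a simple epithelial keratin gene, measured 307 ± 26.4 CPM in JAG2KO and 267 ± 7.86 CPM in Scramble (here and below, means ± SD, n = 3). Its partner keratin gene Krt8 fell, with 4.13 ± 0.839 CPM in JAG2KO and 124 ± 4.60 CPM in Scramble (log2 fold change -4.90, adjusted p = 1.72e-10 in edgeR). Krt19 fell too, with 0.470 ± 0.127 CPM in JAG2KO and 1.38 ± 0.0777 CPM in Scramble (adjusted p = 0.0117 in edgeR).

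Collagens are secreted proteins in which α chains wind into triple helices. Fibrillar collagens build the cables of connective tissue, network-forming collagens build sheets such as the basement membrane, and beaded collagens form fine filaments near cells. Other chains decorate fibrils, anchor epithelia or sit in the cell membrane. In tumours the fibrillar chains are usually ascribed to fibroblasts, but cancer cells of mesenchymal character also express them.

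Most of the abundant collagen chain genes were higher in JAG2KO. Of the 29 genes, all of which were tested, 13 rose, 2 fell and 14 did not pass the test (edgeR quasi-likelihood test, adjusted p under 0.05). Over all 16049 tested genes 11.8% rose and 12.5% fell, 24.3% in all. The median log2 fold change of JAG2KO over Scramble was 0.54 for the 29 genes and 0.00 for all tested genes. The 3 JAG2KO values lay wholly above the 3 Scramble values for 14 of the 29 genes and wholly below for 3, against 19.5% and 20.9% of all tested genes, 40.3% in all. Of the genes called, 3 (Col5a2, Col12a1 and Col18a1) rose and 2 (Col11a2 and Col28a1) fell by at least 2-fold, as 3.17% and 3.03% of all tested genes did. Depth allows more calls in abundant genes: of 16 collagen genes with a mean of at least 20 CPM, 12 rose and 0 fell, where 14.4% and 16.7% of all tested genes at that level did, 31.1% in all. Of the 29, 25 reached 10 counts in all 6 libraries, and 0 passed through libraries of 1 group alone.

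**Figure D1:**
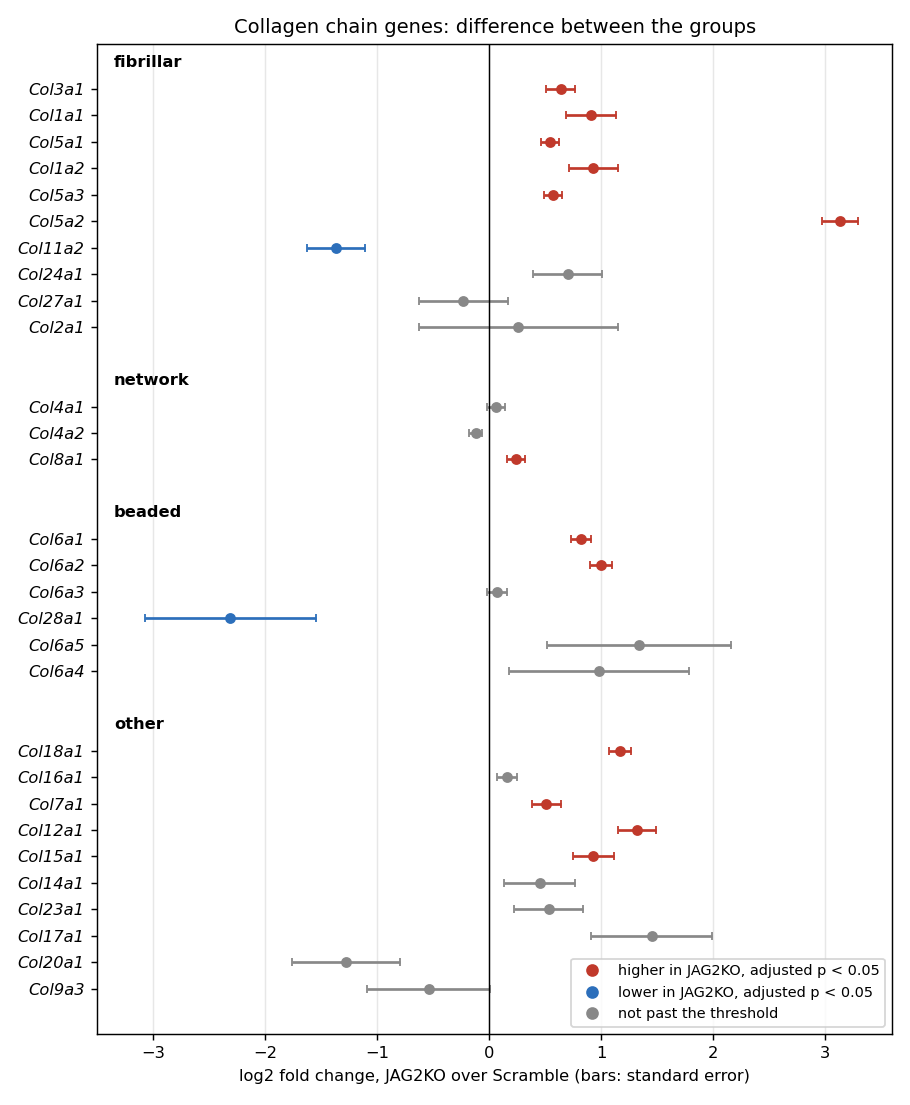
Log2 fold change of JAG2KO over Scramble for the 29 collagen chain genes, by class and, within a class, by mean level; bars are standard errors and colours give the edgeR call. Col5a2 stands at 3.13, the other 12 genes that rose lie between 0.24 and 1.32, and Col11a2 and Col28a1 lie at -1.37 and -2.31.

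By class, 6 of 10 fibrillar genes rose and 1 fell, 1 of 3 network genes rose, 2 of 6 beaded genes rose and 1 fell, and 4 of 10 other genes rose. Of all tested genes, 11.8% rose and 12.5% fell. The 44 genes together took 1.49%, 1.09% and 1.08% of the counts in JagKO2, JagKO3 and JagKO4, against 0.758%, 0.777% and 0.767% in Scramble replicates 1, 2 and 3. JagKO2 stood above the other 5 libraries, and the groups did not overlap. Network chains were the exception among the classes: they took 0.0829 ± 0.00483% of counts in JAG2KO and 0.0806 ± 0.00318% in Scramble. In bulk RNA, a change in the number of cells that express a gene and a change in RNA per cell cannot be told apart.

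Levels between genes were compared per kilobase of merged exon length. Col3a1, the chain of type III collagen, led in both groups with 572 ± 142 CPM per kilobase in JAG2KO and 368 ± 12.4 in Scramble. Col18a1 and Col6a1 followed. Their levels per kilobase were 214 ± 33.6 and 212 ± 30.4 in JAG2KO, which did not differ beyond their spread, and 95.3 ± 5.71 and 120.4 ± 3.54 in Scramble, where Col6a1 was the higher. Col3a1 alone held 46.0% of all collagen counts in JAG2KO and 47.1% in Scramble. Col1a2 measured 26.3 ± 9.82 CPM per kilobase in JAG2KO and 13.8 ± 3.42 in Scramble, or 61.2 and 32.0 per kilobase of its longest transcript, so its place in the order depends on the length used.

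**Figure D2:**
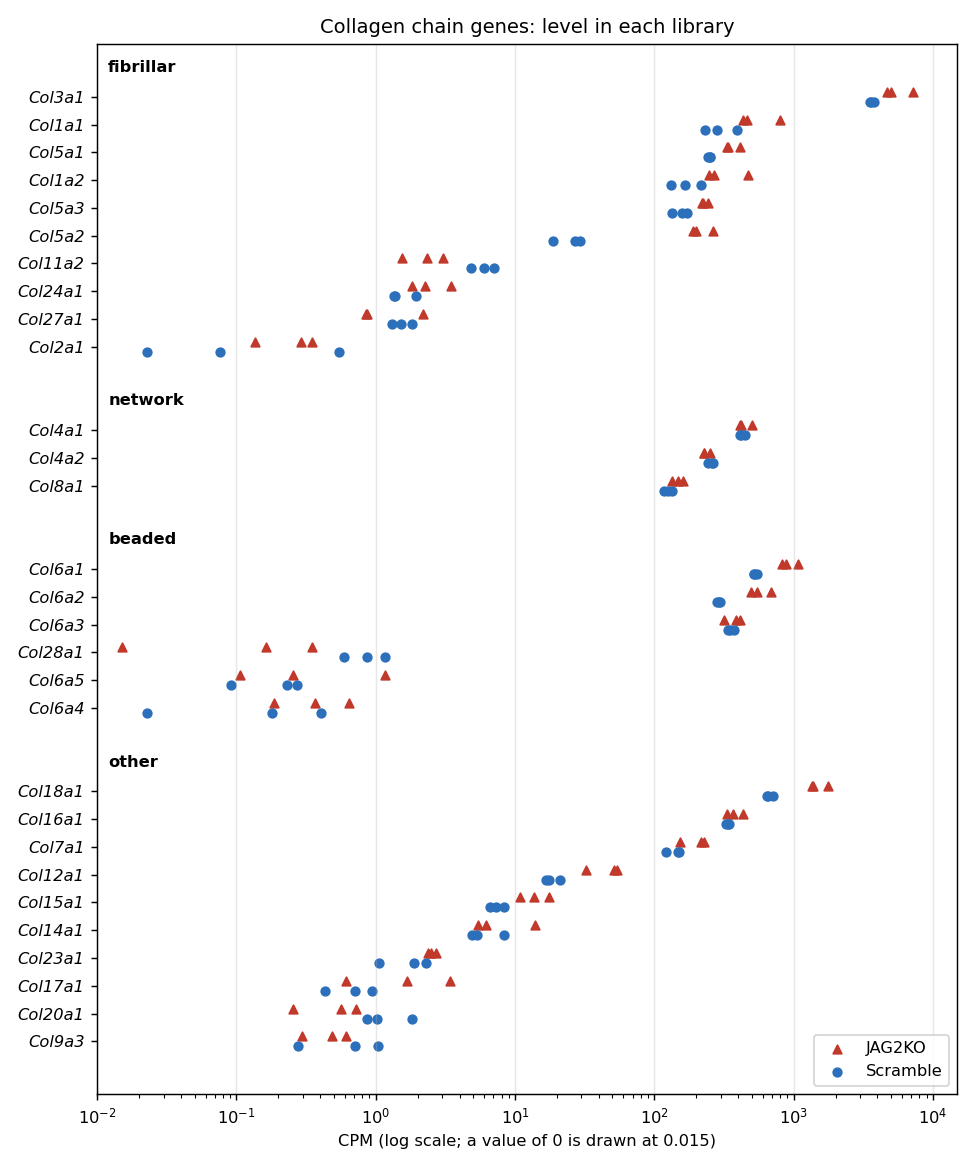
CPM of each library on a log axis for the 29 genes, with JAG2KO as triangles above Scramble as circles; a value of 0 is drawn at 0.015. Levels run from 0 to 7215 CPM, and for Col5a2 the triangles sit near 200 CPM and the circles near 25.

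Among the fibrillar chains, all 6 with a mean of at least 20 CPM rose. Col3a1 (chromosome 1, 45311538 to 45349706 in GRCm38, plus strand) measured 7215, 4983 and 4658 CPM in JagKO2, JagKO3 and JagKO4, and 3583, 3747 and 3509.7 CPM in Scramble replicates 1, 2 and 3. The groups did not overlap, and JagKO2 stood far above its group. The log2 fold change was 0.64 ± 0.13 (SE, adjusted p = 0.00336, edgeR), and 0.42 without JagKO2. Col1a1 encodes the α1 chain of type I collagen, the main collagen of bone and skin. It had 803, 459 and 430.2 CPM in JagKO2, JagKO3 and JagKO4, against 280.4, 229.9 and 391 CPM in Scramble replicates 1, 2 and 3. Its partner chain gene Col1a2 had 467, 269 and 245 CPM in those JAG2KO libraries and 165, 132 and 217 CPM in those Scramble libraries. For both genes JagKO2 was highest in its group and replicate 3 in Scramble, and the groups stood apart by a narrow margin. Log2 fold changes were 0.91 ± 0.22 (SE, adjusted p = 0.0112, edgeR) for Col1a1 and 0.93 ± 0.22 (SE, adjusted p = 0.00882, edgeR) for Col1a2. Without JagKO2 they were 0.57 and 0.59. Both calls ended under DESeq2 (adjusted p = 0.0687 and 0.0526), and that of Col1a1 also without Scramble replicate 1 (adjusted p = 0.0547). The adjusted p over alternatives ran from 4.15e-35 to 0.0687 for Col1a1 and from 6.61e-36 to 0.0526 for Col1a2. Both low ends came from the fit without a low-count filter, where the SE was 0.07 and not 0.22. Under every other alternative the adjusted p was at least 0.00523 for Col1a1 and 0.00542 for Col1a2.

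Promoter windows from RefSeq (build GRCm38.p6, 250 bases before to 50 after an annotated start) matched 23 of the 29 genes, in 25 windows; Col1a1, Col2a1, Col5a2, Col9a3, Col12a1 and Col14a1 had none. Searched on both strands were the letters of the TATA box, TATAAA, of the CCAAT box and of the GC box, GGGCGG; in the printed windows no matches overlap. Col3a1 and Col1a2 are given as chains of types III and I that rose, and their windows contrast: capitals mark TATAAA in Col3a1, which begins 117 bases before the start, and in Col1a2 the letters of the CCAAT and GC boxes on either strand.
Col3a1, chr1:45311288-45311587, plus strand: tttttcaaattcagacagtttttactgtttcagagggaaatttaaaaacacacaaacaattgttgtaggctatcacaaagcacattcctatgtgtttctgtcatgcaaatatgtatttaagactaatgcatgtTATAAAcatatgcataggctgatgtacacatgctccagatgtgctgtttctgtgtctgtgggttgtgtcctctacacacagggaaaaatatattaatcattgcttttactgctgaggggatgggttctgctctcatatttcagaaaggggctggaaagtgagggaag
Col1a2, chr6:4505368-4505667, plus strand: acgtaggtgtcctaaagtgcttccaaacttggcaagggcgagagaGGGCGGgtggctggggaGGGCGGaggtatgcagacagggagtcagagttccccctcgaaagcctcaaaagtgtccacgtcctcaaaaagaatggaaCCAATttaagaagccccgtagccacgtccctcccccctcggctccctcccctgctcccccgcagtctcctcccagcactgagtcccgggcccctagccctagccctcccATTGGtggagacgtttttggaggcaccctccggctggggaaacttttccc
TATAAA was in 3 of the 25 windows (12.0%) and in 13.6% of all 32851 windows. CCAAT was in 9 (36.0%, against 37.4%), and GGGCGG in 16 (64.0%, against 35.7%). The windows of Col4a1 and Col4a2 overlap, as do those of Col6a2, so their matches are not separate. The set of all windows was not matched for GC content. A match describes these letters and is not a site.

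Type V collagen forms mixed fibrils with types I and III and is known to start fibrils and limit their width. Its 3 chain genes all rose, Col5a2 by the most. Col5a2 (chromosome 1, 45374321 to 45503282, minus strand), the α2 chain, measured 264, 198 and 191 CPM in JagKO2, JagKO3 and JagKO4. In Scramble replicates 1, 2 and 3 it measured 27.0, 18.6 and 29.1 CPM. Every JAG2KO library lay far above every Scramble library. The log2 fold change was 3.13 ± 0.16 (SE, adjusted p = 9.99e-08, edgeR), or 8.74-fold, and ranked 55th from the top of 16049 tested genes. Leaving out any 1 library gave 2.96 to 3.25. Called genes with a log2 fold change of at least 2.5 made up 0.71% of tested genes, and Col5a2 was the collagen among them.

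The α1 chain gene Col5a1 had 415, 335 and 336 CPM in JagKO2, JagKO3 and JagKO4 and 249, 253 and 244 CPM in Scramble replicates 1, 2 and 3. The α3 chain gene Col5a3 had 221, 242 and 225 CPM in the same JAG2KO libraries and 135, 158 and 171 CPM in the Scramble libraries. Neither gene overlapped between the groups. Their log2 fold changes were 0.54 ± 0.08 (SE, adjusted p = 0.000605, edgeR) and 0.57 ± 0.08 (SE, adjusted p = 0.000467, edgeR).

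Ratios of counts within a library do not depend on scaling, and 5 ratios of partner or neighbouring chains were compared. Like the other tests, these were chosen with earlier results of these data known. The ratios of Col5a1 and of Col3a1 share Col5a2, so both carry its change. The ratio of Col5a1 to Col5a2 was 1.57, 1.69 and 1.76 in JagKO2, JagKO3 and JagKO4, and 9.23, 13.6 and 8.37 in Scramble replicates 1, 2 and 3. The groups were wholly apart, with a log2 difference of -2.60 (exact two-sided permutation p = 0.1, the smallest that 3 against 3 allows; adjusted over the 5 ratios 0.125). Col3a1 and Col5a2 lie tail to tail 24.6 kilobases apart. Their ratio was 25.6 ± 1.51 in JAG2KO and 152 ± 43.7 in Scramble, without overlap (exact permutation p = 0.1, the smallest possible). By contrast the ratio of Col1a1 to Col1a2, partners in type I collagen, was 1.73 ± 0.0277 in JAG2KO and 1.75 ± 0.0514 in Scramble (exact permutation p = 0.7). It held between 1.70 and 1.80 in all 6 libraries, JagKO2 included.

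**Figure D3:**
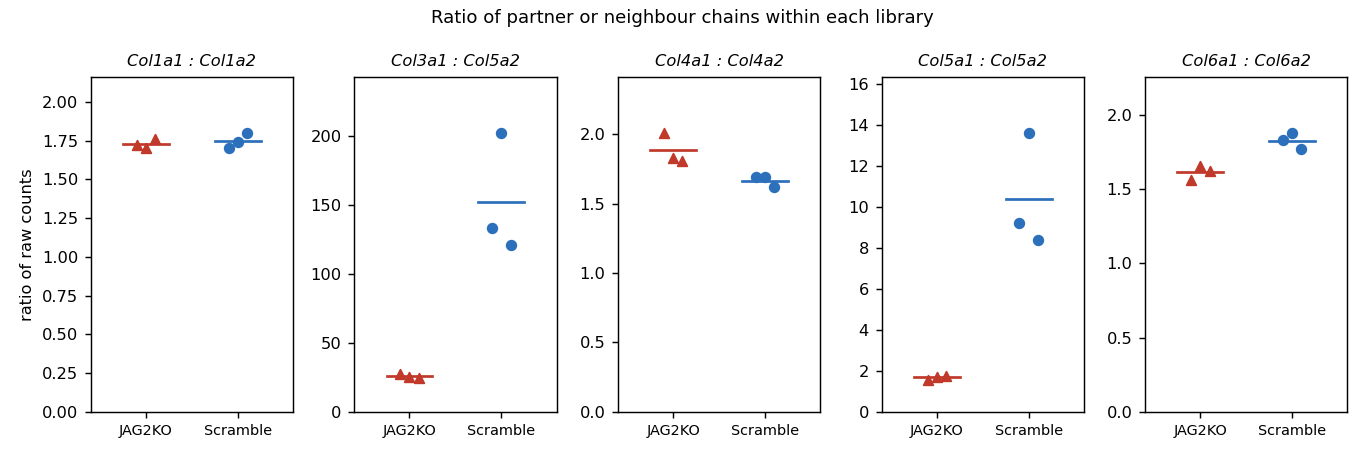
Ratio of raw counts of 5 chain pairs in each library, with JAG2KO left of Scramble; horizontal lines are group means and every axis starts at 0. The ratios of Col3a1 and Col5a1 to Col5a2 are several times lower in JAG2KO, while that of Col1a1 to Col1a2 is 1.70 to 1.80 in all 6 libraries.

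Among the low fibrillar genes, only Col11a2 was called, and it fell. Col11a2, the α2 chain of the cartilage collagen XI, had 1.54, 3.03 and 2.33 CPM in JagKO2, JagKO3 and JagKO4, and 4.82, 6.03 and 7.07 CPM in Scramble replicates 1, 2 and 3. All JAG2KO values were below all Scramble values, and it fell with a log2 fold change of -1.37 ± 0.26 (SE, adjusted p = 0.00241, edgeR). Col24a1 measured 1.82 to 3.49 CPM in JAG2KO and 1.36 to 1.93 CPM in Scramble, and Col27a1 0.851 to 2.19 CPM in JAG2KO and 1.31 to 1.81 CPM in Scramble. Col2a1, the cartilage collagen II, measured 0.135 to 0.346 CPM in JAG2KO and 0.0229 to 0.544 CPM in Scramble. These 3 genes overlapped between the groups and did not pass the test (edgeR adjusted p = 0.128 to 0.869). Their log2 fold changes were 0.70 ± 0.31 for Col24a1, -0.23 ± 0.40 for Col27a1 and 0.26 ± 0.89 for Col2a1 (± SE). At such levels a difference as large as that of Col3a1 could be missed.

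Of the network genes, the type IV pair, which forms the common network of basement membranes, showed no detectable difference. Col4a1 had 501, 417 and 415 CPM in JagKO2, JagKO3 and JagKO4, and 412, 449 and 417 CPM in Scramble replicates 1, 2 and 3. Col4a2 had 249, 228 and 228 CPM in those JAG2KO libraries and 244, 265 and 258 CPM in those Scramble libraries. Both overlapped between the groups, with log2 fold changes of 0.06 ± 0.08 (SE, adjusted p = 0.632, edgeR) and -0.12 ± 0.06 (SE, adjusted p = 0.199, edgeR). With trends on GC content and length removed, Col4a2 passed at -0.28 (adjusted p = 0.0135, range over alternatives 0.0135 to 0.511). The ratio of Col4a1 to Col4a2 was 1.89 ± 0.111 in JAG2KO and 1.67 ± 0.0416 in Scramble, without overlap (exact permutation p = 0.1, the smallest possible). Col8a1, a short-chain network collagen of vessel walls, had 135, 160.4 and 147 CPM in JagKO2, JagKO3 and JagKO4 and 125, 134 and 118 CPM in Scramble replicates 1, 2 and 3. It rose by a log2 fold change of 0.24 ± 0.08 (SE, adjusted p = 0.041, edgeR). That call ended without JagKO3, JagKO4, Scramble replicate 1 or Scramble replicate 3 and with trends removed (adjusted p = 0.1 to 0.154, range over alternatives 0.0081 to 0.154).

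Col4a1 and Col4a2 are shown because they start head to head on chromosome 8: their annotated exons share 22 bases, on opposite strands, and reads there cannot be told apart without strand. Both windows lack TATAAA, and capitals mark the CCAAT and GC box letters on either strand.
Col4a1, chr8:11312777-11313076, minus strand: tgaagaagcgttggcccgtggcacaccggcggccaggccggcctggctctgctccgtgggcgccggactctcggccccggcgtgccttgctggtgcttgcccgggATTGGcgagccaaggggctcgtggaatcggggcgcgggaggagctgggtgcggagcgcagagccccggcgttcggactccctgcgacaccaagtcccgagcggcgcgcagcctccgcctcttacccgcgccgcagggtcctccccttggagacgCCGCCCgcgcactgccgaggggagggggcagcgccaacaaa
Col4a2, chr8:11312555-11312854, plus strand: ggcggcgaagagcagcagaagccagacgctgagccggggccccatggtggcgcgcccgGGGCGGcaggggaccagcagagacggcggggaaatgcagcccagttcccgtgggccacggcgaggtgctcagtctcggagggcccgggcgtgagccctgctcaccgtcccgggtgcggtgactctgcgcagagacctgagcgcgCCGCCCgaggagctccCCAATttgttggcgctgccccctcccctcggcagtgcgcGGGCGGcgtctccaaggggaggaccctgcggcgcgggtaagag

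Type VI collagen is the beaded collagen of the space around cells and is assembled from α1, α2 and a large α3 or α3-like chain. Col6a1 (chromosome 10, 76708792 to 76726168) had 1077, 822 and 885 CPM in JagKO2, JagKO3 and JagKO4, against 517, 545 and 519 CPM in Scramble replicates 1, 2 and 3. Its neighbour Col6a2 (chromosome 10, 76595762 to 76623630) had 689.8, 496 and 547 CPM in those JAG2KO libraries and 283, 290.2 and 294 CPM in those Scramble libraries. Both groups of values were wholly apart. Log2 fold changes were 0.82 ± 0.09 (SE, adjusted p = 4.74e-05, edgeR) for Col6a1 and 1.0 ± 0.1 (SE, adjusted p = 2.56e-05, edgeR) for Col6a2. Col6a3, the α3 chain on chromosome 1, had 415, 316 and 388 CPM in JagKO2, JagKO3 and JagKO4 and 349.9, 374 and 339 CPM in Scramble replicates 1, 2 and 3. These values overlapped, with a log2 fold change of 0.07 ± 0.09 (SE, adjusted p = 0.606, edgeR). A ratio picked after these values were seen, Col6a1 to Col6a3, was 2.60, 2.60 and 2.28 in the JAG2KO libraries and 1.48, 1.46 and 1.53 in the Scramble libraries. The ratio of Col6a1 to Col6a2 was 1.61 ± 0.0473 in JAG2KO and 1.82 ± 0.055 in Scramble (exact permutation p = 0.1, the smallest possible). The window of Col6a1, shown because it is the most abundant beaded chain per kilobase, held none of the 3 motifs.
Col6a1, chr10:76725995-76726294, minus strand: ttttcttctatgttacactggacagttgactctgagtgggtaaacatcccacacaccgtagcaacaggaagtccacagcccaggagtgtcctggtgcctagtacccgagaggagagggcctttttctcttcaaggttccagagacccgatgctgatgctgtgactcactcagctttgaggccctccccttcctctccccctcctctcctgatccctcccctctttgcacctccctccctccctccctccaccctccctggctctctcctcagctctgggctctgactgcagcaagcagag

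The other beaded genes were rare. Col28a1, a collagen with von Willebrand A domains, had 6, 0 and 15 counts in JagKO2, JagKO3 and JagKO4 (0.162, 0.00 and 0.346 CPM) and 26, 51 and 34 counts in Scramble replicates 1, 2 and 3 (0.589, 1.17 and 0.865 CPM). All JAG2KO values were below all Scramble values, and it fell with a log2 fold change of -2.31 ± 0.76 (SE, adjusted p = 0.0436, edgeR). The call ended when any library but JagKO4 was left out (adjusted p = 0.0621 to 0.155, range over alternatives 0.00194 to 0.155). The α3-like chains Col6a4 and Col6a5 measured 0.106 to 1.16 CPM in JAG2KO and 0.0229 to 0.407 CPM in Scramble, overlapped and did not pass. A level of 3 counts corresponded to 0.068 to 0.0811 CPM in these libraries.

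Among the remaining chains, the gene with the highest level was Col18a1 (chromosome 10, 77052178 to 77166548, minus strand). It encodes a basement membrane collagen that carries sugar chains and whose end fragment is endostatin. It had 1776, 1369 and 1364 CPM in JagKO2, JagKO3 and JagKO4, against 641, 715 and 651 CPM in Scramble replicates 1, 2 and 3. The groups were far apart, with a log2 fold change of 1.17 ± 0.10 (SE, adjusted p = 5.75e-06, edgeR). Col15a1, the chain most like it in build, had 17.6, 10.9 and 13.7 CPM in the JAG2KO libraries and 7.25, 6.63 and 8.29 CPM in the Scramble libraries. It too stood apart, with a log2 fold change of 0.93 ± 0.18 (SE, adjusted p = 0.00248, edgeR). Col18a1 has a pair of annotated starts in this table, and both windows are shown because counts per gene do not tell which start was used. The upstream one holds CCAAT and GC box letters on the reverse strand, in capitals, and the downstream one none of the motifs.
Col18a1 upstream start, chr10:77166481-77166780, minus strand: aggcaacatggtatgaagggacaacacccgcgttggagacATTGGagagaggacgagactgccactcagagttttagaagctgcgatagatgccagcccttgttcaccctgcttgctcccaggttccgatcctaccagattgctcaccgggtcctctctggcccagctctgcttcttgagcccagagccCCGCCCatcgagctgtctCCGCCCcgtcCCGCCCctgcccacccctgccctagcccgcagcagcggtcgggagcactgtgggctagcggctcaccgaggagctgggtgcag
Col18a1 downstream start, chr10:77113656-77113955, minus strand: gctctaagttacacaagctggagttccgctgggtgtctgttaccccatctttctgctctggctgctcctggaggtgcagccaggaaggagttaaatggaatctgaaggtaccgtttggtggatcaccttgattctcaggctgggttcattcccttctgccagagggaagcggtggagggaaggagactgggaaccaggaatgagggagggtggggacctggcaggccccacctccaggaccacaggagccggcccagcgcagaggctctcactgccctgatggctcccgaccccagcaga

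Fibril-associated chains bind to the surface of fibrils. Col12a1, the chain of type XII, had 32.4, 54.2 and 51.7 CPM in JagKO2, JagKO3 and JagKO4 and 21.2, 16.8 and 17.6 CPM in Scramble replicates 1, 2 and 3. JagKO2 was the lowest of its group here, unlike for Col1a1 and Col3a1, and still above every Scramble library. The log2 fold change was 1.32 ± 0.17 (SE, adjusted p = 0.000164, edgeR). Col16a1 had 434, 368 and 334 CPM in the JAG2KO libraries and 329, 345 and 339.6 CPM in the Scramble libraries, overlapped and did not pass (log2 fold change 0.16, edgeR adjusted p = 0.19). Col14a1, the relative of type XII, had 13.8 CPM in JagKO2 but 6.20 and 5.38 CPM in JagKO3 and JagKO4, within the Scramble range of 4.93 to 8.34 CPM. Col9a3 and Col20a1 measured 0.254 to 0.718 CPM in JAG2KO and 0.275 to 1.83 CPM in Scramble and did not pass, though Col20a1 did not overlap. Col20a1 shares 79 exon bases with the gene model BX649560.1 on the same strand, and Col9a3 shares 234 with Tcfl5 on the opposite strand, so their levels are uncertain.

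Col7a1, which forms the fibrils that anchor epithelia, had 154, 216 and 228 CPM in JagKO2, JagKO3 and JagKO4 and 149, 121 and 150 CPM in Scramble replicates 1, 2 and 3. JagKO2 was only just above the Scramble values, and the log2 fold change was 0.51 ± 0.13 (SE, adjusted p = 0.0133, edgeR). The call ended without JagKO4 or Scramble replicate 2 and with trends removed (adjusted p = 0.0561 to 0.0981, range over alternatives 5.59e-11 to 0.0981). The low end of that range came from the fit without a low-count filter, where the SE was 0.07. Of the chains that span the membrane, Col17a1, of epithelial hemidesmosomes, had 3.4, 0.612 and 1.68 CPM in the JAG2KO libraries and 0.430, 0.711 and 0.941 CPM in the Scramble libraries. These overlapped, and the log2 fold change of 1.45 ± 0.54 (SE, adjusted p = 0.0712, edgeR) passed without JagKO3, without a low-count filter and under DESeq2 (adjusted p = 0.00296 to 0.034, range over alternatives 0.00296 to 0.34). Col23a1 measured 2.37 to 2.73 CPM in JAG2KO and 1.05 to 2.31 CPM in Scramble and did not pass although the groups did not overlap (edgeR adjusted p = 0.234).

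The 15 genes below the count threshold had 0 to 45 counts over the 6 libraries, at most 15 in a library, and 0 of them were tested. They were Col4a3, Col4a4, Col4a5 and Col4a6, the type IV chains of specialised basement membranes, together with Col6a6, Col8a2, Col9a1, Col9a2, Col10a1, Col11a1, Col13a1, Col19a1, Col22a1, Col25a1 and Col26a1. Just outside the threshold, Col4a4 had 4, 6 and 9 counts in JagKO2, JagKO3 and JagKO4 and 9, 2 and 15 in Scramble replicates 1, 2 and 3. Just inside it, Col2a1 had 5, 11 and 15 counts in the JAG2KO libraries and 24, 1 and 3 in the Scramble libraries. Col25a1 had 0 counts in every library.

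Calls around the collagen genes did not always run the same way as the collagen gene itself. The 7 tested genes on each side of Col5a2 held 3 that rose, among them Col3a1, and 3 that fell, and on chromosome 1 87 of 1000 tested genes rose and 166 fell. Around Col1a2, 0 of 14 neighbours rose and 9 fell, where 98 of 813 tested genes of chromosome 6 rose and 188 fell. Around Col15a1, 1 of 14 rose and 11 fell, where 117 of 918 tested genes of chromosome 4 rose and 133 fell. Around Col6a1, 4 rose and 0 fell, and those that rose include the collagen genes Col6a2 and Col18a1. On that chromosome, 10, 143 of 758 tested genes rose and 61 fell. Whether the rise of these 3 chromosome 10 genes is shared with their neighbourhood was not tested.

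Collagen chains are hydroxylated and folded in the endoplasmic reticulum, trimmed outside the cell and cross-linked. Of 33 listed genes for these steps, 32 were tested, 5 rose, 15 fell and 12 did not pass (edgeR). That is 15.6% higher and 46.9% lower, against 11.8% and 12.5% of all tested genes. The median log2 fold change was -0.18. The 5 with the smallest p were Fkbp10, Loxl2, P3h4, Loxl3 and Plod1. Fkbp10, an isomerase that folds collagen and aids lysine hydroxylation, had 33.7, 31.0 and 32.6 CPM in JagKO2, JagKO3 and JagKO4 and 207, 214 and 219 CPM in Scramble replicates 1, 2 and 3, and fell with a log2 fold change of -2.72 ± 0.07 (SE, adjusted p = 1.72e-10, edgeR). P3h4, a partner in the lysine hydroxylation complex, measured 6.42 ± 0.622 CPM in JAG2KO and 31.2 ± 1.54 CPM in Scramble. On chromosome 11, P3h4 (100408456 to 100414836, minus strand) and Fkbp10 (100415697 to 100424824, plus strand) lie head to head. Whether their falls are separate was not tested. The lysyl hydroxylase gene Plod1 measured 145 ± 9.85 CPM in JAG2KO and 224 ± 6.08 CPM in Scramble. Of the cross-linking genes, Loxl2 measured 129 ± 15.4 CPM in JAG2KO and 7.14 ± 1.85 CPM in Scramble, and Loxl3 47.1 ± 3.54 CPM in JAG2KO and 132 ± 6.23 CPM in Scramble, so these relatives moved in opposite directions. The genes named next were chosen after their values were seen. Of the procollagen trimming genes, Adamts2, Adamts3 and Adamts14 rose (log2 fold changes 1.28, 0.96 and 0.32), while Bmp1 and Tll1 did not pass (log2 fold changes 0.16 and 1.10, edgeR adjusted p = 0.0894 and 0.202). Tll2, of the same family as Bmp1, fell, with 1, 0 and 0 counts in JagKO2, JagKO3 and JagKO4 and 22, 36 and 23 counts in Scramble replicates 1, 2 and 3. Of the genes for proline 4-hydroxylase α subunits, P4ha1 and P4ha2 fell (log2 fold changes -0.48 and -1.17) and P4ha3 rose (0.59). Serpinh1, the collagen chaperone, overlapped between the groups and measured 924 ± 29.0 CPM in JAG2KO and 922 ± 54.3 CPM in Scramble.

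Of 16 listed genes for collagen receptors and breakdown, 14 were tested, 4 rose, 6 fell and 4 did not pass, with a median log2 fold change of 0.14. That is 28.6% higher and 42.9% lower, against 11.8% and 12.5% of all tested genes. The smallest p belonged to Mmp13, Fap, Itga2, Mmp9 and Itga10. Mmp13, a collagenase, measured 3.51 ± 0.826 CPM in JAG2KO and 24.3 ± 6.36 CPM in Scramble. The collagen receptor integrin Itga2 measured 3.06 ± 0.173 CPM in JAG2KO and 10.2 ± 0.558 CPM in Scramble, while Itga10, another collagen receptor, measured 17.2 ± 4.88 CPM in JAG2KO and 7.58 ± 0.227 CPM in Scramble. Mmp9, a gelatinase, rose by a log2 fold change of 1.29, and the protease gene Fap, also on the fibroblast list, fell with one of -2.40.

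**Figure D4:**
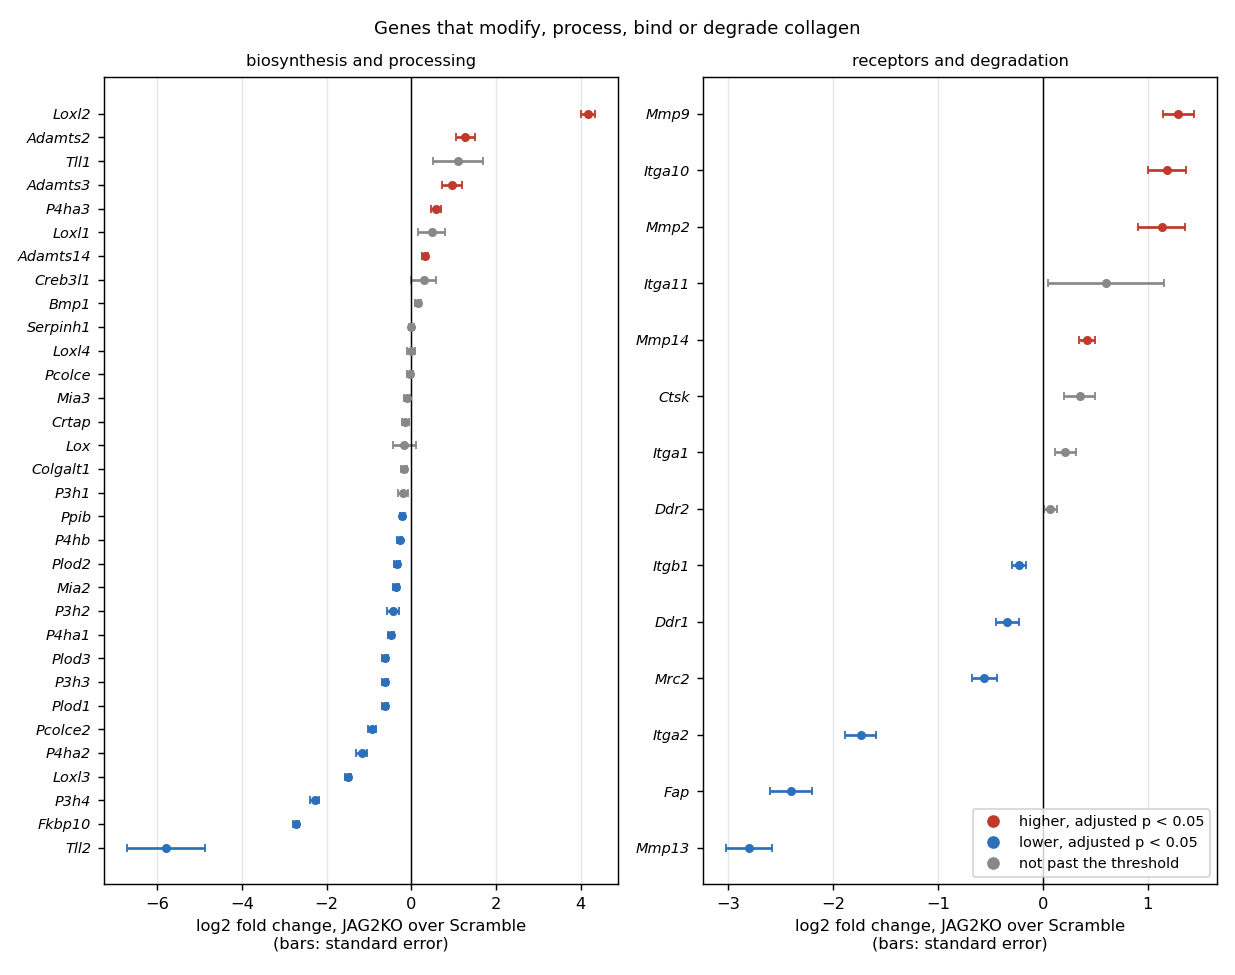
Log2 fold change of JAG2KO over Scramble, with standard errors, for 32 tested genes of collagen biosynthesis and processing (left) and 14 of collagen receptors and breakdown (right), each sorted by value; colours give the edgeR call. On the left, 15 genes fell and 5 rose, with Loxl2 at 4.18 and Fkbp10 at -2.72; the estimate for Tll2 rests on 1 count in JAG2KO.

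Markers of stromal cells were measurable in the sorted cells, and some of them differed between the groups. The fibroblast genes Dcn, Lum and Dpt measured 443 ± 116, 353 ± 91.2 and 190 ± 42.0 CPM in JAG2KO and 373 ± 40.0, 279 ± 20.2 and 160 ± 16.0 CPM in Scramble, and these 3 did not pass the edgeR test (adjusted p = 0.242, 0.0991 and 0.189). Beside the counts that follow, 11.8% of all tested genes rose and 12.5% fell. Of the 9 fibroblast markers, 2 rose (Thy1 and Postn, 22.2%), 2 fell (Fap and Fn1, 22.2%) and 5 did not pass. Their sum ran from 2983 to 3924 CPM in JAG2KO and from 3995 to 4696 CPM in Scramble, 0 of the 9 were at 0, and Fn1 made up most of the sum with 2138 ± 276 CPM in JAG2KO and 3306 ± 366 CPM in Scramble. The 7 pericyte and smooth muscle markers, of which 5 rose (71.4%) and 0 fell, summed to 113 to 157 CPM in JAG2KO and 61.2 to 77.0 CPM in Scramble. The most abundant, Pdgfrb, Acta2 and Rgs5, measured 47.6 ± 6.59, 41.8 ± 1.92 and 29.0 ± 8.86 CPM in JAG2KO. In Scramble they measured 26.8 ± 3.54, 28.7 ± 3.31 and 7.54 ± 1.35 CPM. Myh11 and Notch3 rose too (log2 fold changes 2.79 and 1.90), while Des and Cspg4 did not pass. The 13 endothelial markers summed to 139.7 to 167 CPM in JAG2KO and 149 to 151 CPM in Scramble, of which 7 rose (53.8%) and 1 fell (7.69%). The marker that fell, Eng, weighed most in that sum, with 73.4 ± 11 CPM in JAG2KO and 101 ± 3.18 CPM in Scramble. Pecam1, Cdh5 and Plvap, among the 7 that rose, measured 14.3 ± 3.80, 13.4 ± 1.71 and 12.6 ± 2.55 CPM in JAG2KO and 6.37 ± 1.15, 7.58 ± 0.281 and 5.07 ± 0.301 CPM in Scramble. The 11 macrophage markers, of which 4 rose (36.4%) and 1 fell (9.09%), summed to 94.2 to 112 CPM in JAG2KO and 60.9 to 70.3 CPM in Scramble, and Ptprc, the gene of CD45, measured 2.42 to 3.88 CPM in JAG2KO and 2.09 to 2.24 CPM in Scramble. Of these stromal and leukocyte markers, 0 were at 0 in every library. The part of such cells in the collagen differences was not tested.

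JagKO2 was the highest JAG2KO library for 19 of the 29 collagen genes (65.5%), against 39.1% of all tested genes, and also for Dcn, Lum and Dpt. Without it, 13 collagen genes rose, and all 13 were the genes called with it.

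**Figure D5:**
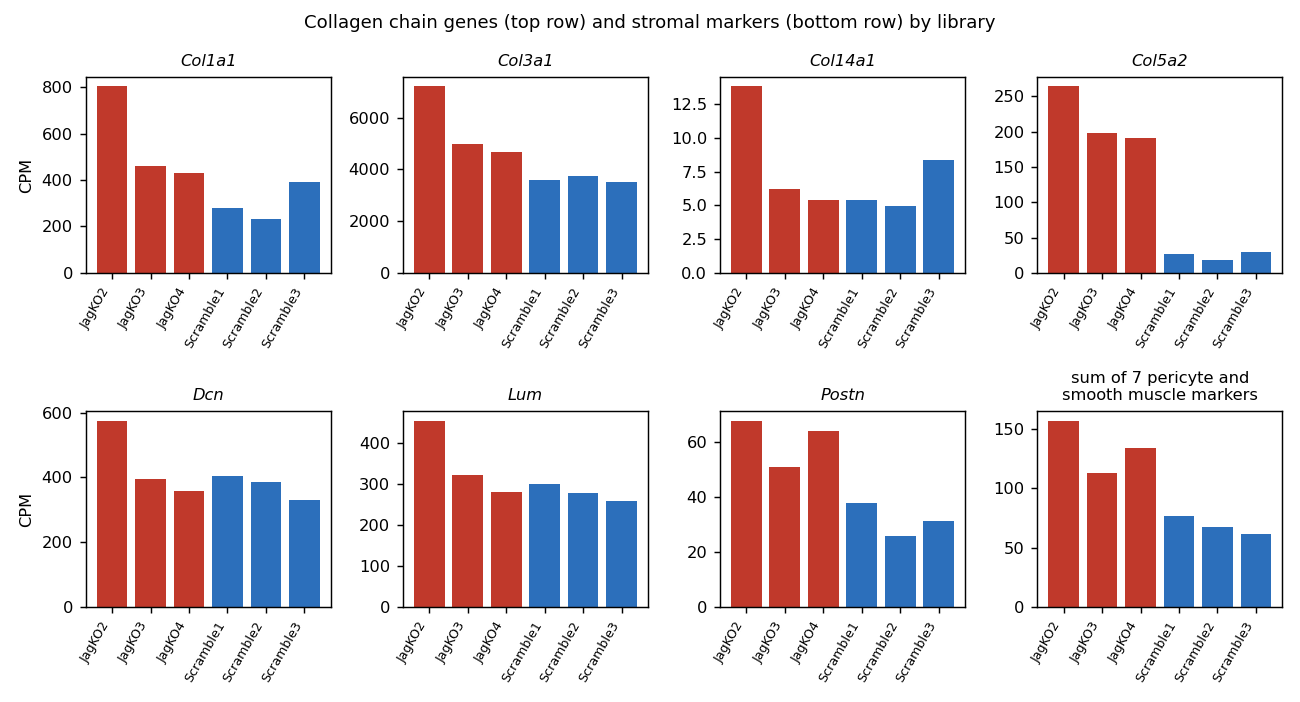
CPM in each library, JAG2KO left of Scramble, for 4 collagen chain genes (top), and for 3 fibroblast markers and the sum of 7 pericyte and smooth muscle markers (bottom); every axis starts at 0. JagKO2 is the tallest bar in every panel, and Col5a2 is high in all 3 JAG2KO libraries.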

How the data were processed

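Polyadenylated RNA of 6 libraries was sequenced; the authors deposited whole-number counts per versioned Ensembl gene ID. The submitters' processing notes list STAR 2.7.7a and HTSeq 0.11.2. Settings, genome build, annotation, strand and the handling of shared reads were not given in the sources used here. Overlapping genes can therefore share or lose reads. JagKO columns are numbered 2 to 4 and titles 1 to 3, so these columns were used by group alone. Of the IDs, 55154 matched a symbol, and coordinates and exon lengths come from GENCODE M21 (GRCm38).

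The test was that of edgeR 4.0.16 (R 4.3.3): filterByExpr (minimum count 10, minimum total 15), TMM factors, quasi-likelihood F test, Benjamini-Hochberg adjustment over 16049 genes. CPM used library sizes scaled by TMM. The SE is the log2 fold change over the square root of F. DESeq2 1.42.0 and limma 3.58.1 (voom) were alternatives, with RLE factors, library totals, other filters, each library left out, and GC and length trends removed (splines, 5 degrees of freedom). Procedures were tested on simulated data. Collagen genes, lists and tests were chosen with earlier results of these data known. Named were all 29 genes past the threshold, with every library's value where called or of at least 20 CPM, and the 5 called genes of smallest p in each of 2 pathway lists.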

Additional observations from a re-analysis of the deposited data

How the results depend on the processing

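Over 370 refits of the 29 collagen fold changes under other settings, 349 kept their side of the threshold, 16 lost a call, 5 gained one and 0 called values changed sign. The count of genes that rose was 13, and 11 to 14 under every alternative. With GC and length trends removed, the log2 fold changes of these 13 genes were all lower than in the main fit. That of Col5a1 went from 0.54 to 0.35 and that of Col5a2 from 3.13 to 3.01. Over all tested genes, 1669 then rose and 2261 fell, against 1891 and 2005 in the main fit. The count that fell was 2, and 1 with a filter of CPM 1 in 3 libraries; it was 1 to 2 when each library was left out, since Col28a1 was lost without any library but JagKO4. It was 3 without a low-count filter (with Col20a1) and with GC and length trends removed (with Col4a2). Requiring 10 counts in all 6 libraries kept 25 genes. Leaving out each library gave log2 ratio differences of -2.74 to -2.39 for Col5a1 to Col5a2, -2.67 to -2.30 for Col3a1 to Col5a2, 0.13 to 0.20 for Col4a1 to Col4a2, -0.20 to -0.16 for Col6a1 to Col6a2 and -0.04 to 0.01 for Col1a1 to Col1a2. Genes for receptors and breakdown that fell numbered 6, and 4 to 6 with a library left out, where Ddr1 or Itgb1 lost their calls. No paired analysis was possible because JAG2KO columns carry the numbers 2 to 4, but titles the numbers 1 to 3. Genes of few counts, such as Col28a1 and Col2a1, are limited by depth.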
